A study of Mus musculus with 4 samples.

Results

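Dividing T cells of the pancreatic islets were the cells in which at least 4 of 10 cell cycle genes (Mki67, Top2a, Birc5, Ube2c, Cdk1, Ccna2, Ccnb2, Rrm2, Stmn1 and 2810417H13Rik) had a UMI, a unique molecular identifier that counts 1 captured RNA molecule. There were 207 of them among 3809 kept cells: 79 of 1934 at 16 weeks of age and 128 of 1875 at 8 weeks. A kept cell had 500 or more genes and at most 10% mitochondrial UMIs, and the remaining 1855 and 1747 kept cells are called non-dividing. The cells came from female NOD mice, an inbred strain with spontaneous autoimmune diabetes, which were pre-diabetic at both ages, and each age has 1 library of messenger RNA and 1 of receptor sequences. Live islet cells that stained with the antibody H57-597 against the receptor's beta chain were sorted without regard to lineage. The number of mice behind each library is not given in the sources used here, so the ages have no replicates and every interval covers counting error only.

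T cells divide after their receptor has bound antigen, and daughter cells carry the same rearranged receptor, so cells with 1 receptor sequence form a clone. A cell that enters the cycle copies its DNA in S phase, prepares to divide in G2 and divides in M phase. It grows in RNA content as it does so. Resting T cells keep a program of quiescence genes such as Klf2 and Btg1, and in islet infiltrates CD4 T cells, CD8 T cells and Foxp3-bearing regulatory T cells can all be found.

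The 10 genes divided the cells into a large group with few and a small group with many. At 16 weeks 1611 kept cells had none of the 10 genes and 219 had 1, while 20 had all 10. At 8 weeks 1488 had none, 219 had 1 and 42 had all 10. Just inside the threshold, 9 cells at 16 weeks and 11 at 8 weeks had exactly 4 of the genes, and just outside it 9 and 11 had exactly 3. Mki67, a nuclear protein of cycling cells (chromosome 7, 135689784 to 135716361 of mouse build GRCm38), had a UMI in 62 of 79 dividing and 24 of 1855 non-dividing cells at 16 weeks, and in 103 of 128 dividing and 35 of 1747 non-dividing cells at 8 weeks. Stmn1, a microtubule regulator, was the least restricted of the 10, with a UMI in 79 of 79 dividing and 163 of 1855 non-dividing cells at 16 weeks, and in 127 of 128 and 157 of 1747 at 8 weeks. Ccna2, the cyclin of S and G2 phase, was found in 58 dividing cells against 1 non-dividing cell at 16 weeks and in 94 against 0 at 8 weeks. These genes chose the cells, so the values describe the choice.

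**Figure D1:**
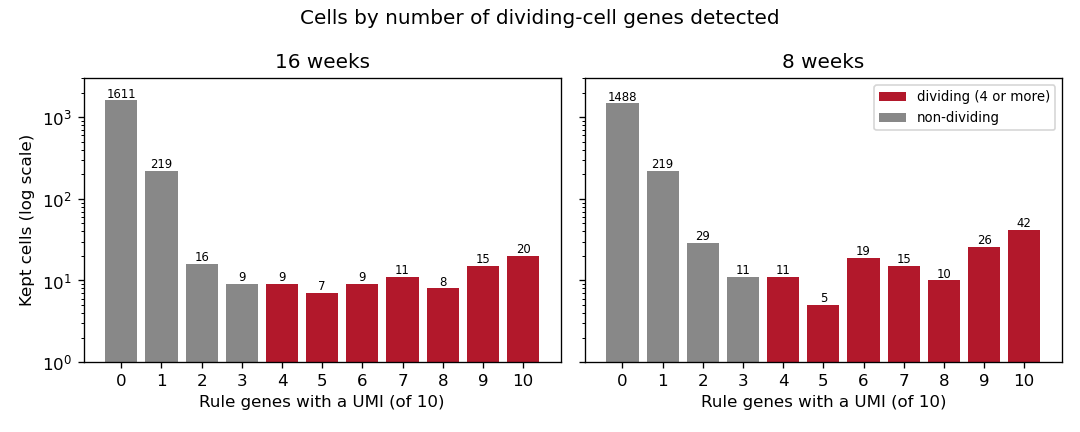
Number of kept cells (vertical axis, log scale) by how many of the 10 rule genes had a UMI in the cell (horizontal axis), at 16 weeks (left) and 8 weeks (right), with dividing cells in red and non-dividing cells in grey. Counts fall to 9 and 11 cells at 3 genes and at 4 genes, and reach 20 and 42 cells at 10 genes.

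Both replication and division RNA were present in most members. An S phase list made up a median of 0.675% of the UMIs of a dividing cell against 0.126% of a non-dividing cell at 16 weeks, and 0.626% against 0.133% at 8 weeks. A list of G2 and M phase genes made up 2.18% against 0.457% at 16 weeks and 2.23% against 0.487% at 8 weeks. Ccnb1 or Cdc20, which act at entry into and exit from mitosis, had a UMI in 51 of 79 members at 16 weeks and 82 of 128 at 8 weeks. Genes of DNA replication had one in 74 and 119 members, both kinds in 47 and 76, and neither in 1 and 3. These counts use all UMIs of members that were chosen on genes of these phases, and no count in non-dividing cells is given. Among genes that the rule did not use, the cell cycle genes highest in both libraries included Hist1h2ap, a replication-dependent histone. Others were Cks1b and Cks2, which bind cyclin-dependent kinases, Pttg1, the securin of chromatid separation, and Tyms, which makes thymidylate for DNA. The rest were Gmnn, an inhibitor of re-replication, Cenpa and Cenpw of the centromere, Hmgb2, a chromatin protein, and Lig1, the ligase of DNA replication. Hist1h2ap stood at 974 CPM in dividing against 30.4 CPM in non-dividing cells at 16 weeks and at 1496 against 37.7 CPM at 8 weeks, where CPM is UMIs per 1000000 UMIs summed over the cells of a class after each cell was thinned to 2000 UMIs. Only 36 of 76 measured S phase genes and 50 of 188 measured G2 and M phase genes reached 50 UMIs over both classes. A gene of these lists can pass that minimum through the dividing cells alone, so no count of higher genes is given for these lists. Of the cell cycle genes named above, only Hist1h2ap, Cenpa and Hmgb2 had 50 or more UMIs in the non-dividing cells of each library. The others passed the minimum through the dividing cells in at least 1 library, so their rank is not separate from the choice of cells. Among 6 tested G1 genes 1 was 1.5-fold or more higher in both libraries and 1 lower, where 12.4% of all tested genes were higher and 7.96% lower: Cdk4, a kinase of G1 phase, was higher in dividing cells (308 against 107 CPM at 16 weeks and 230 against 107 CPM at 8 weeks), while its partner Ccnd2 was lower (89.7 against 159 CPM at 16 weeks and 105 against 168 CPM at 8 weeks).

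**Figure D2:**
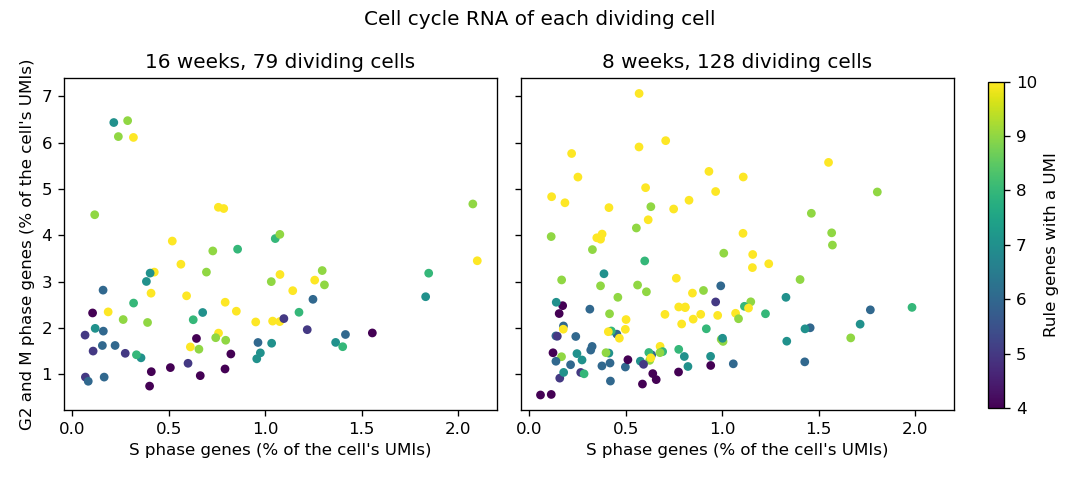
Share of each dividing cell's UMIs from S phase genes (horizontal axis, percent) and from G2 and M phase genes (vertical axis, percent) at 16 weeks (left, 79 cells) and 8 weeks (right, 128 cells), with colour for the number of rule genes detected. The cells spread over both axes in each library, and those with 4 rule genes lie mostly at the low end of the vertical axis.

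Dividing cells held about 5 times as much captured RNA as the others, and lineage and gene levels below are compared at equal depth for that reason. At 16 weeks the median was 13327 UMIs and 3217 genes in dividing cells, against 2861 UMIs and 1110 genes in non-dividing cells. At 8 weeks it was 15098 UMIs and 3421.5 genes against 2828 UMIs and 1126 genes. The median mitochondrial share was 2.36% against 2.79% at 16 weeks and 2.19% against 2.81% at 8 weeks. A UMI of Cd3d, Cd3e or Cd3g, the invariant chains of the receptor complex, was found in all 79 and all 128 dividing cells. Productive beta chains numbered 2 or more, as in a droplet with 2 cells or in a T cell with 2 receptors, in 19 of 77 dividing cells with a beta chain (24.7%) against 216 of 1567 non-dividing cells (13.8%) at 16 weeks, and in 40 of 126 (31.7%) against 162 of 1455 (11.1%) at 8 weeks. No doublet caller was run. At 2000 UMIs per cell, 2 or more UMIs from a list of 13 acinar genes were found in 6.41% of dividing and 5.18% of non-dividing cells at 16 weeks, and in 3.91% and 3.70% at 8 weeks. The summed acinar level was 179 CPM against 268 CPM at 16 weeks and 289 CPM against 85.3 CPM at 8 weeks. For 12 myeloid and dendritic genes the shares were 7.69% and 6.40% at 16 weeks and 10.2% and 8.32% at 8 weeks, with 10 and 9 of the genes at 0 in dividing cells. The 7 measured B cell genes gave 1.28% and 0.640% at 16 weeks and 0.781% and 1.07% at 8 weeks, and the 8 measured genes of NK, NKT and gamma-delta T cells gave 3.85% and 1.22% at 16 weeks and 3.91% and 1.63% at 8 weeks. The part of 2-cell droplets and of this RNA in the results below was examined only by leaving such cells out. The libraries shared 5 cell barcodes, none of them of a dividing cell.

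Dividing cells were a smaller share of the kept cells at 16 weeks, 4.08% (exact Clopper-Pearson 95% interval 3.25 to 5.07%), than at 8 weeks, 6.83% (5.73 to 8.06%). That is -2.74 percentage points for 16 minus 8 weeks, and the Newcombe interval runs from -4.21 to -1.30. Because detection of 4 genes depends on depth, members were also called after thinning every cell to 2000 UMIs. That gave 48 of 1641 cells at 16 weeks (2.93%) and 82 of 1535 at 8 weeks (5.34%), a difference of -2.42 points (-3.85 to -1.04). With 1 library per age this compares those libraries, and the age cannot be told apart from other differences between them.

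Lineage was read from UMIs of Cd4 and of Cd8a and Cd8b1, the coreceptors of the main T cell lineages. A cell with Cd4 and neither Cd8 gene is called Cd4-gated and the opposite pattern Cd8-gated. Both lineages were dividing in each library. With all UMIs there were 46 Cd4-gated and 11 Cd8-gated dividing cells at 16 weeks and 73 and 21 at 8 weeks, and a further 15 and 24 had UMIs of both lineages. Cd4-gated cells were then 80.7% of gated dividing cells against 69.1% of gated non-dividing cells at 16 weeks, a difference of 11.6 points (-0.773 to 20.3), and 77.7% against 71.8% at 8 weeks, 5.84 points (-3.96 to 13.6).

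Equal depth at 2000 UMIs turned this direction round. At 2000 UMIs, 12 of 28 gated dividing cells were Cd4-gated (42.9%, 24.5 to 62.8%) against 443 of 720 non-dividing cells (61.5%, 57.9 to 65.1%) at 16 weeks. At 8 weeks the counts were 23 of 50 (46.0%, 31.8 to 60.7%) against 426 of 663 (64.3%, 60.5 to 67.9%). The differences were -18.7 points (-35.4 to -0.242) and -18.3 points (-31.8 to -4.15). Cd4 itself stood at 128 CPM in dividing against 194 CPM in non-dividing cells at 16 weeks and at 125 against 212 CPM at 8 weeks, lower in dividing cells in both. Cd8a stood at 263 against 144 CPM at 16 weeks and at 152 against 157 CPM at 8 weeks, higher in dividing cells in the 16-week library alone, and Cd8b1 at 109 against 121 CPM at 16 weeks and at 102 against 125 CPM at 8 weeks. The share with neither lineage was 59.0% against 52.8% at 16 weeks and 58.6% against 51.6% at 8 weeks. Between cells of 6000 or more UMIs, all thinned to 6000, the Cd4-gated shares were 67.5% against 72.5% at 16 weeks and 64.9% against 74.1% at 8 weeks, with differences of -4.96 points (-21.9 to 9.80) and -9.16 points (-21.8 to 2.91). At 3000 UMIs the 16-week difference was 1.18 points (-15 to 15). At 16 weeks the order of the Cd4-gated shares of dividing and non-dividing cells was thus not fixed even between equal depths. At 8 weeks the share was lower in dividing cells at 2000 and at 6000 UMIs, with an interval that held 0 at 6000, and higher with all UMIs. Cells with UMIs of both lineages at 2000 UMIs were 4 of 78 dividing against 18 of 1563 non-dividing cells at 16 weeks and 3 of 128 against 18 of 1407 at 8 weeks.

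Foxp3, the master regulator of regulatory T cells, was found in few dividing Cd4-gated cells once depth was equal. With gate and gene both read at 2000 UMIs, no difference from non-dividing Cd4-gated cells was detectable. At 2000 UMIs it had a UMI in 1 of 12 dividing (8.33%) and 24 of 443 non-dividing Cd4-gated cells (5.42%) at 16 weeks. At 8 weeks the counts were 2 of 23 (8.7%) and 36 of 426 (8.45%). The differences were 2.92 points (-4.38 to 30.0) and 0.245 points (-6.72 to 18.5), and neither interval excludes 0. Cd8-gated cells, which should mostly lack the gene, gave 0 of 16 dividing cells, which allows a share with a UMI of up to 18.75% if 3 cells are taken as the limit and of up to 20.6% by the exact interval, and 2.89% of non-dividing cells at 16 weeks, and 2 of 27 (7.41%) and 2.11% at 8 weeks. Over all cells Foxp3 stood at 38.5 against 40.6 CPM at 16 weeks and at 74.2 against 46.9 CPM at 8 weeks. It had a UMI there in 6 of 78 dividing (7.69%) and 87 of 1563 non-dividing cells (5.57%) at 16 weeks. At 8 weeks that was 17 of 128 (13.3%, 7.93 to 20.4%) and 91 of 1407 (6.47%, 5.24 to 7.88%), higher in dividing cells. With the gate read from all UMIs but Foxp3 at 2000, its shares in Cd4-gated cells were 8.89% and 6.35% at 16 weeks. At 8 weeks they were 16.4% (8.79 to 27.0%) and 8.25% (6.16 to 10.8%). With gate and gene both read from all UMIs the shares were 28.3% against 11.5% at 16 weeks and 35.6% against 12.8% at 8 weeks. The median depths behind these shares differ about 5-fold. In cells of 6000 or more UMIs thinned to 6000 they were 18.5% against 26.0% and 20% against 22.0%, with 18.4% and 18.6% in non-dividing Cd8-gated cells.

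**Figure D3:**
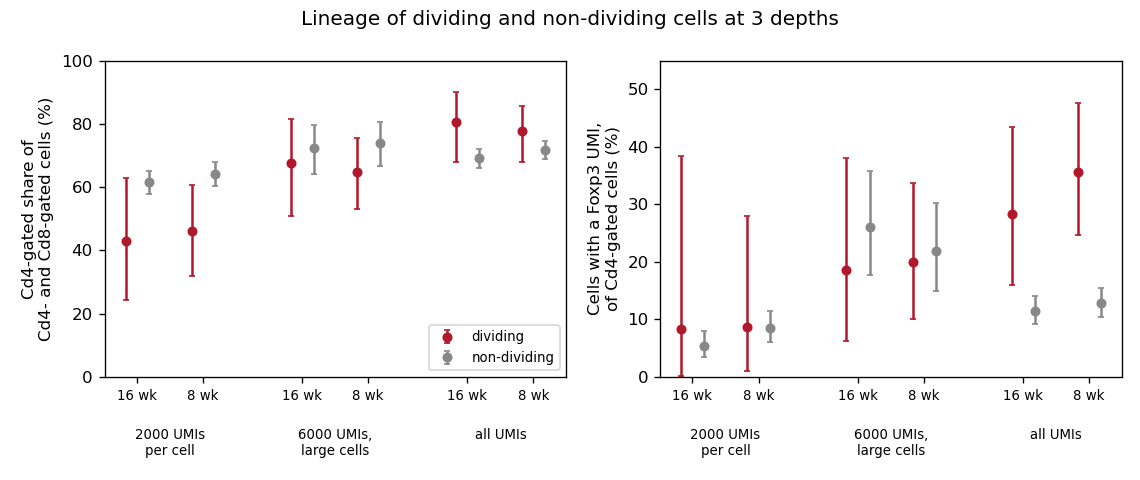
Left, Cd4-gated share of Cd4- and Cd8-gated cells (percent); right, share with a Foxp3 UMI among Cd4-gated cells (percent), in dividing (red) and non-dividing (grey) cells at 16 and 8 weeks, with exact 95% intervals. Groups on the horizontal axis are cells thinned to 2000 UMIs, cells of 6000 or more UMIs thinned to 6000, and all UMIs. The Cd4-gated share of dividing cells lies below that of non-dividing cells at 2000 UMIs (42.9% against 61.5% at 16 weeks) and above it with all UMIs (80.7% against 69.1%).

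Outside the cell cycle, dividing cells had less RNA of quiescence, naive T cell and immediate early genes and more of a set of cytoskeletal and galectin genes and of several metabolic genes. A gene was called when it was 1.5-fold or more higher, or lower, in dividing than in non-dividing cells of both libraries, among genes with at least 50 UMIs over both classes in each library. Of 5332 such genes outside the cell cycle and receptor lists, 579 were called higher (10.9%) and 433 lower (8.12%). Of these, 306 and 144 also had an exact interval of the ratio for counting error that excluded 0 on the log2 scale in both libraries, and 44 of the lower genes had no UMI at all in the dividing cells of a library. The median ratio over these genes was 0.12 at 16 weeks and 0.03 at 8 weeks on the log2 scale. A gene high in dividing cells can reach the minimum of 50 UMIs through those cells, and the count of higher genes includes such genes. Among Cd4-gated cells alone 310 genes (10.5%) were called higher and 235 (7.98%) lower of 2945, and among Cd8-gated cells 229 (19.8%) and 130 (11.2%) of 1157. Between cells of 6000 or more UMIs the counts were 232 (6.21%) and 171 (4.58%) of 3737. Of the 579 genes called higher, 467 could be tested in those large cells and 176 were called there too. Of the 433 called lower, 240 could be tested and 92 were called.

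The comparison of large cells was added after the depth of the dividing cells was seen. Cells of 6000 or more UMIs made up 73 of 79 dividing and 206 of 1855 non-dividing cells at 16 weeks, and 119 of 128 and 238 of 1747 at 8 weeks. Of those with a beta chain, 26.0% of dividing and 54.8% of non-dividing cells at 16 weeks had 2 or more beta chains, and 33.9% and 39.6% at 8 weeks. Values are therefore also given for large cells with fewer than 2 beta chains, 54 dividing and 97 non-dividing at 16 weeks and 79 and 148 at 8 weeks, called single-receptor large cells below. There 143 genes (6.46%) were higher and 83 (3.75%) lower of 2215 that could be tested, against 5332 in all cells. List counts for single-receptor large cells are given out of the members tested in all cells. A member with too few UMIs there counts as not called, so these counts cannot be compared directly with those of all cells.

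Quiescence and growth brake genes were lower in dividing cells. Of 16 tested members 11 were called lower and 0 higher, with a median log2 ratio of -1.63 at 16 weeks and -1.19 at 8 weeks. Btg1, an antiproliferative factor that promotes messenger RNA decay (chromosome 10, 96617006 to 96622809 of GRCm38), stood at 372 CPM in dividing against 862 CPM in non-dividing cells at 16 weeks and at 223 against 677 CPM at 8 weeks. Its log2 ratios were -1.20 (-1.62 to -0.84) and -1.59 (-2.01 to -1.23). Tsc22d3, a glucocorticoid-induced leucine zipper protein, stood at 44.9 against 245 CPM at 16 weeks and at 39.1 against 238 CPM at 8 weeks, ratios of -2.35 and -2.54. Txnip, which limits glucose uptake, stood at 76.9 against 315 CPM at 16 weeks and at 89.8 against 275 CPM at 8 weeks. In single-receptor large cells 7 of the 16 were called lower and 0 higher, with medians of -1.04 and -0.80, and Btg1 was at 272 against 670 CPM at 16 weeks and at 158 against 426 CPM at 8 weeks. Dividing cells of both libraries were below non-dividing cells in every one of these pairs.

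Naive and stem-like T cell genes followed the same direction, with weaker list medians in large cells. Of 14 tested members 12 were called lower and 0 higher, with medians of -1.75 at 16 weeks and -1.20 at 8 weeks. The list shares Klf2 and Foxp1 with the quiescence list. Il7r, the receptor of the survival cytokine interleukin 7 (chromosome 15, 9505788 to 9530176 of GRCm38), stood at 38.5 CPM in dividing against 271 CPM in non-dividing cells at 16 weeks and at 39.1 against 259 CPM at 8 weeks. Its ratios were -2.70 (-4.27 to -1.69) and -2.66 (-3.80 to -1.84), from 6 and 10 UMIs in dividing cells. Lef1, a nuclear partner of beta-catenin high in resting cells, stood at 109 against 556 CPM at 16 weeks and at 89.8 against 355 CPM at 8 weeks. Klf2, which maintains quiescence and trafficking, stood at 295 against 1016 CPM at 16 weeks and at 297 against 572 CPM at 8 weeks, and its target S1pr1, the receptor for exit from tissue, at 96.2 against 286 CPM at 16 weeks and at 97.7 against 219 CPM at 8 weeks. Tcf7, a transcription factor of stem-like T cells, was less far apart, at 115 against 223 CPM at 16 weeks and at 93.8 against 199 CPM at 8 weeks. The 2 tested members that were not called were Slamf6, at 122 against 135 CPM at 16 weeks and at 82.0 against 148 CPM at 8 weeks, and Id3, at 122 against 112 CPM at 16 weeks and at 93.8 against 119 CPM at 8 weeks.

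In single-receptor large cells 2 of the 14 naive and stem-like genes tested in all cells were called lower. Members with too few UMIs there could not be called. The medians were -0.89 at 16 weeks and -0.45 at 8 weeks. Il7r stayed low in dividing cells there, at 27.8 against 87.6 CPM at 16 weeks and at 8.44 against 86.7 CPM at 8 weeks. Klf2 was at 213 against 361 CPM at 16 weeks and at 243 against 232 CPM at 8 weeks. It was thus lower in dividing cells of this size at 16 weeks and close to the non-dividing level at 8 weeks.

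Immediate early and stress genes, which respond within minutes to receptor signals and to handling of tissue, were also lower. Of 12 tested members 9 were called lower and 0 higher, with medians of -1.06 and -1.13. Jun (chromosome 4, 95049034 to 95052222 of GRCm38) stood at 147 CPM in dividing against 817 CPM in non-dividing cells at 16 weeks and at 203 against 553 CPM at 8 weeks. Fos, its partner in the AP-1 complex, stood at 167 against 669 CPM at 16 weeks and at 172 against 392 CPM at 8 weeks. The heat shock gene Hspa1b stood at 353 against 1598 CPM at 16 weeks and at 375 against 1087 CPM at 8 weeks, and its near-identical copy Hspa1a at 64.1 against 390 CPM at 16 weeks and at 109 against 299 CPM at 8 weeks, so that reads may be split between the pair. In single-receptor large cells 7 of 12 were called lower, with Jun at 151 against 469 CPM at 16 weeks and at 152 against 380 CPM at 8 weeks.

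Among genes higher in dividing cells, a list of S100, annexin and galectin genes of effector and memory T cells had 8 of 13 tested members called higher and 0 lower, with medians of 1.05 at 16 weeks and 0.72 at 8 weeks. Lgals1, the secreted lectin galectin 1 (chromosome 15, 78926725 to 78930465 of GRCm38), stood at 2314 CPM in dividing against 400 CPM in non-dividing cells at 16 weeks and at 2688 against 731 CPM at 8 weeks. The ratios were 2.54 (2.36 to 2.70) and 1.88 (1.75 to 2.0). Vim, the intermediate filament vimentin, stood at 1750 against 589 CPM at 16 weeks and at 1961 against 815 CPM at 8 weeks, and Crip1, a LIM domain protein, at 1750 against 714 CPM at 16 weeks and at 1926 against 871 CPM at 8 weeks. In single-receptor large cells 4 of the 13 list members tested in all cells were called higher. The list medians there were 0.57 at 16 weeks and 0.07 at 8 weeks. Lgals1, Vim and Crip1 were still higher in dividing cells there. Lgals1 was at 2099 against 1050 CPM at 16 weeks and at 2846 against 1632 CPM at 8 weeks, with log2 ratios of 1.00 and 0.80. The calcium-binding S100a6 was not, at 1070 against 411 CPM at 16 weeks and 1125 against 711 CPM at 8 weeks in all cells but with ratios of 0.07 and -0.22 in single-receptor large cells. S100a4 had ratios of 1.05 and 1.18 in all cells and of -0.21 and -0.08 in those.

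Metabolic and growth lists were shifted upward by less. Of 12 tested glycolysis genes 6 were called higher and 0 lower (medians 0.57 and 0.62), of 18 genes of the respiratory chain and citric acid cycle 9 higher and 1 lower (0.61 and 0.64), of 17 genes of Myc targets and ribosome biogenesis 7 higher (0.50 and 0.66), and of 16 proteasome and chaperonin genes 4 higher (0.47 and 0.64). All 16 of the last had ratios above 0 in both libraries. Gapdh, the glycolytic dehydrogenase, stood at 2962 CPM in dividing against 1060 CPM in non-dividing cells at 16 weeks and at 3305 against 1396 CPM at 8 weeks. Tpi1, triosephosphate isomerase, stood at 212 against 48.3 CPM at 16 weeks and at 164 against 66.8 CPM at 8 weeks. Not every glycolytic gene stood apart: Gpi1, the isomerase near the entry of the pathway, was at 340 against 399 CPM at 16 weeks and at 418 against 419 CPM at 8 weeks. Cycs, cytochrome c, stood at 532 against 241 CPM at 16 weeks and at 527 against 270 CPM at 8 weeks, whereas Uqcrh of respiratory complex III stood at 577 against 673 CPM at 16 weeks and at 551 against 675 CPM at 8 weeks. Ran, the GTPase of nuclear transport and spindle assembly, stood at 1295 against 377 CPM at 16 weeks and at 1238 against 396 CPM at 8 weeks, with ratios of 1.5 and 1.40 in single-receptor large cells. Myc itself, a driver of T cell growth after activation, was not among the genes called, at 57.7 against 75.5 CPM at 16 weeks and at 43.0 against 64.7 CPM at 8 weeks. Nucleotide and one-carbon synthesis had 2 of 12 members called higher, Paics and Impdh2, and nutrient uptake 0 of 4. The share called higher over all tested genes outside the cell cycle and receptor lists was 10.9%. In single-receptor large cells the 4 lists named first had 1 of 12, 2 of 18, 2 of 17 and 1 of 16 members called higher. Over all genes tested there 6.46% were higher. These counts are too small to be set apart from that share, and their totals can include members with too few UMIs for a call. The list medians there were between 0.31 and 0.45, against -0.003 at 16 weeks and -0.02 at 8 weeks over all genes outside the cell cycle and receptor lists.

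Inhibitory receptors were mixed. Of 11 tested members of the exhaustion list 2 were called higher and 0 lower, where 10.9% of all tested genes outside the cell cycle and receptor lists were higher and 8.12% lower. Pdcd1, which encodes PD-1 (chromosome 1, 94038305 to 94052553 of GRCm38), stood at 212 CPM in dividing against 77.1 CPM in non-dividing cells at 16 weeks and at 258 against 139 CPM at 8 weeks, ratios of 1.47 (0.88 to 1.99) and 0.90 (0.50 to 1.27). At equal depth it had a UMI in 21 of 78 dividing (26.9%) and 164 of 1563 non-dividing cells (10.5%) at 16 weeks, and in 47 of 128 (36.7%) and 249 of 1407 (17.7%) at 8 weeks. The second was Cd38, an ectoenzyme, on 5 and 11 UMIs in dividing cells, with intervals that held 0. Lag3, a receptor for MHC class II, stood at 179 against 186 CPM at 16 weeks and at 113 against 205 CPM at 8 weeks. Tox, a transcription factor of exhausted cells, stood at 89.7 against 81.3 CPM at 16 weeks and at 121 against 96.7 CPM at 8 weeks, and Tigit at 186 against 129 CPM at 16 weeks and at 188 against 171 CPM at 8 weeks. With gates read from all UMIs, Pdcd1 had a UMI in 22.2% of dividing and 14% of non-dividing Cd4-gated cells at 16 weeks and in 43.8% and 24.7% at 8 weeks. In single-receptor large cells Pdcd1 had ratios of 0.46 and 0.28 and Lag3 of -0.49 and -1.19. There 0 of the 11 were called in either direction, and members with too few UMIs could not be called.

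Cytotoxic and helper lists also gave small counts of calls. Over all tested genes outside the cell cycle and receptor lists 10.9% were called higher and 8.12% lower, and these counts are too small to be set apart from those shares. Of 8 tested cytotoxic genes 2, Gzmb and Ccl3, were called higher and 0 lower, with medians of 1.51 at 16 weeks and 0.30 at 8 weeks. Gzmb, the serine protease granzyme B, stood at 96.2 CPM in dividing against 12.8 CPM in non-dividing cells at 16 weeks and at 54.7 against 25.9 CPM at 8 weeks, on 15 and 14 UMIs in dividing cells. At 16 weeks Gzmb had fewer than 50 UMIs in non-dividing cells and passed the minimum through the dividing cells. It stood at 34.0 against 63.6 CPM at 16 weeks in single-receptor large cells (log2 ratio -0.86, -2.02 to 0.10) and at 75.9 against 61.9 CPM at 8 weeks. Ccl3, a chemokine, had a ratio of 1.20 at 8 weeks in all cells. In Cd4-gated cells the 8-week ratio was -2.47, but no dividing cell there had a UMI and the interval held 0 (upper limit 0.57). In single-receptor large cells the Ccl3 ratios were 1.87 (0.90 to 2.98) at 16 weeks and 0.85 (-0.003 to 1.70) at 8 weeks. Nkg7, a granule protein, stood at 788 against 333 CPM at 16 weeks and at 586 against 462 CPM at 8 weeks. Cxcr3, a chemokine receptor of Th1 and effector cells, stood at 212 against 61.7 CPM at 16 weeks and at 133 against 119 CPM at 8 weeks, and whether the difference between dividing and non-dividing cells changes with age was not tested. Ifng, the cytokine of Th1 cells, stood at 51.3 against 40.9 CPM at 16 weeks and at 54.7 against 55.4 CPM at 8 weeks. Of 9 Th1 genes 0 were called, of 8 follicular helper genes 1 (Il6st, lower), of 5 tissue residency genes 0, and of 14 activation and costimulation genes 1 in each direction (Tnfrsf4 higher, Cd40lg lower). Il2rb, a chain of the interleukin 2 receptor, stood at 308 against 144 CPM at 16 weeks and at 312 against 218 CPM at 8 weeks. Of 8 regulatory T cell genes 1, the costimulatory receptor Tnfrsf4, was called higher; it stood at 385 against 165 CPM at 16 weeks and at 387 against 253 CPM at 8 weeks, and in single-receptor large cells at 321 against 314 CPM at 16 weeks and at 348 against 438 CPM at 8 weeks.

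Interferon, survival and receptor lists gave counts of calls too small to be set apart from the shares over all genes. Of all tested genes outside the cell cycle and receptor lists 10.9% were called higher and 8.12% lower. Of 9 tested interferon response genes 2 were called lower, among them Ifi47, an interferon-induced GTPase, at 96.2 CPM in dividing against 226 CPM in non-dividing cells at 16 weeks and at 137 against 218 CPM at 8 weeks. Of 9 apoptosis and p53 genes 2 were called higher, among them Bak1, a pore-forming effector of apoptosis, and 1 lower, Bcl2, the survival factor. Bak1 stood at 70.5 against 43.8 CPM at 16 weeks and at 113 against 50.5 CPM at 8 weeks, and Bcl2 at 32.1 against 105 CPM at 16 weeks and at 54.7 against 108 CPM at 8 weeks. Receptor complex and signalling genes gave 1 call: of 11 tested 1 was called lower and 0 higher, 9 were below 0 in both libraries, and the medians were -0.16 and -0.29. Cd3e stood at 1808 against 1955 CPM at 16 weeks and at 1582 against 2187 CPM at 8 weeks, with ratios of -0.32 in both libraries in single-receptor large cells.

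**Figure D4:**
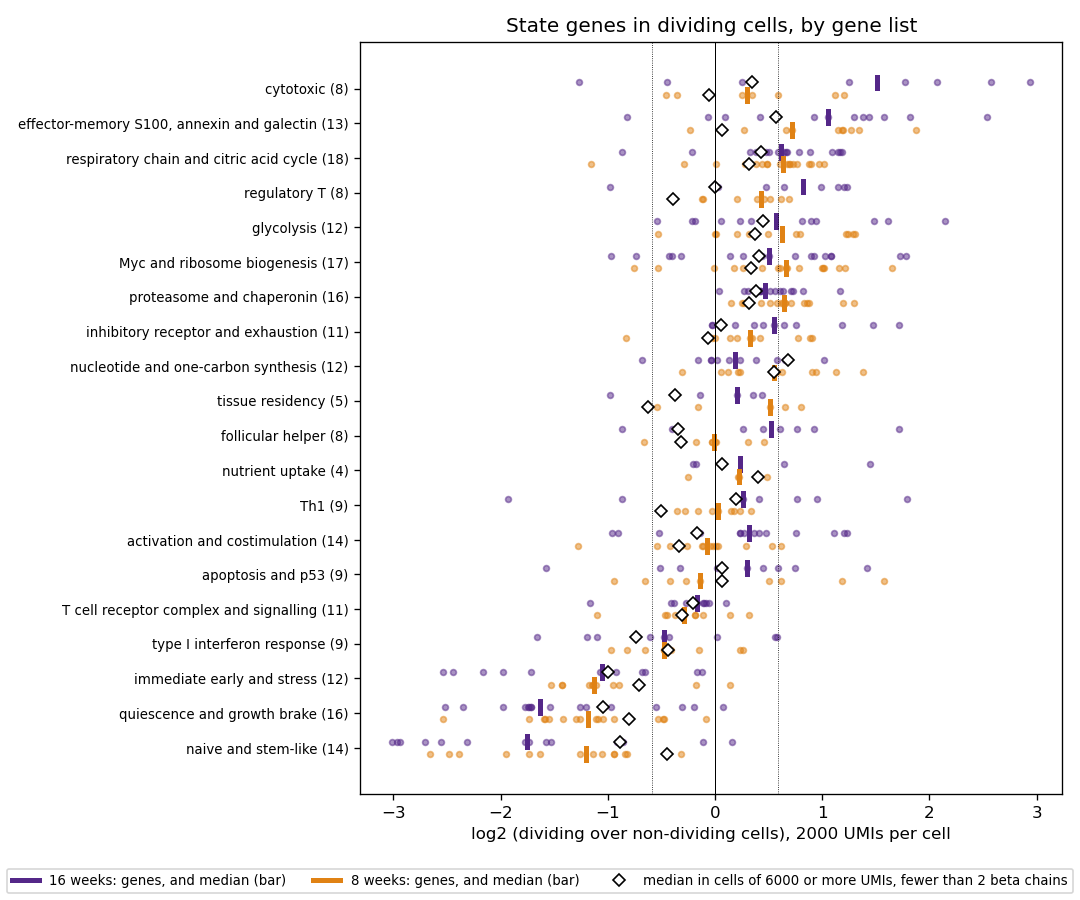
Log2 ratio of dividing over non-dividing cells (horizontal axis, at 2000 UMIs per cell) for each tested gene of 20 state lists (rows, with the number of tested genes), at 16 weeks (purple) and 8 weeks (orange). Bars are list medians, diamonds the medians in cells of 6000 or more UMIs with fewer than 2 beta chains, dotted lines 1.5-fold. The quiescence (-1.63 and -1.19) and immediate early (-1.06 and -1.13) medians lie left of the lower line, and their diamonds do as well.

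The 12 genes highest in both libraries outside the cell cycle were Fabp5, a fatty acid carrier, Alyref, an mRNA export adaptor, 2700094K13Rik, a selenoprotein gene, Cmc2, Dctpp1, which clears faulty dCTP from the nucleotide pool, Ppil1 of the spliceosome, Nelfe of the negative elongation factor, Lgals1, Carhsp1, Rps27l, a p53-responsive ribosomal protein homologue, Ly6e, a surface protein, and Nap1l1, a histone chaperone. Fabp5 stood at 122 CPM in dividing against 17.6 CPM in non-dividing cells at 16 weeks and at 133 against 21.7 CPM at 8 weeks. 2700094K13Rik stood at 641 against 92.8 CPM at 16 weeks and at 590 against 107 CPM at 8 weeks, and Ly6e at 1320 against 364 CPM at 16 weeks and at 1746 against 429 CPM at 8 weeks. In non-dividing cells Alyref had 44 UMIs at 16 weeks and 37 at 8 weeks, and Carhsp1 had 40 and 43, below the minimum of 50. Alyref and Carhsp1 thus passed the minimum through the dividing cells, and their rank is not separate from that filter. Between cells of 6000 or more UMIs the ratios of all 12 stayed above 0, from 0.80 to 2.30, but Carhsp1 was not among the genes called there.

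The 12 lowest included Igfbp4, Frat2, Als2cl, St8sia1, Cpne4, Il7r, Pdlim4, Zscan2, BC094916, Gbp8 and Akap8l, most of them low genes. Igfbp4, an insulin-like growth factor binding protein, stood at 6.41 CPM in dividing cells against 480 CPM in non-dividing cells at 16 weeks and at 39.1 against 518 CPM at 8 weeks, on 1 and 10 UMIs in dividing cells. Its ratios between cells of 6000 or more UMIs were -3.58 and -1.42. Frat2, Als2cl, St8sia1, Cpne4 and Zscan2 had no UMI in the dividing cells of either library, against 18.5 to 37.1 CPM in non-dividing cells. Set against a floor of 3 UMIs over the class, at 2000 UMIs per cell Frat2 was at least 1.93-fold lower in dividing cells at 16 weeks and at least 2.0-fold lower at 8 weeks. That bound did not hold at 8 weeks with all UMIs (log2 ratio -0.74), and between cells of 6000 or more UMIs Frat2 had ratios of -1.11 at 16 weeks and 0.12 at 8 weeks. Als2cl had -1.67 and -0.58 there and Cpne4 -0.70 and -1.12. St8sia1 had -0.09 and -1.03, and 0.30 at 16 weeks in single-receptor large cells. For Zscan2 at 16 weeks the non-dividing level was at the floor and no fold is given. Pdlim4 had no UMI at 16 weeks and was at least 3.89-fold lower there.

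Dividing cells belonged to shared clones more often than non-dividing cells when all cells with a paired receptor were counted. A clone is defined by the same V and J segments and the same nucleotide CDR3, the stretch that spans the V to J junction, in both the alpha and the beta chain within a library. At 16 weeks 16 of 73 dividing cells (21.9%, 13.1 to 33.1%) had a clone mate in the library, against 80 of 1323 non-dividing cells (6.05%, 4.82 to 7.47%). At 8 weeks the counts were 34 of 116 (29.3%, 21.2 to 38.5%) against 165 of 1246 (13.2%, 11.4 to 15.3%). The differences were 15.9 points (7.79 to 26.7) and 16.1 points (8.29 to 25.1). Members of a clone are not independent, which the intervals do not take into account. Receptors were paired in 92.4% of dividing against 71.3% of non-dividing cells at 16 weeks and in 90.6% against 71.3% at 8 weeks. Between cells of 6000 or more UMIs, with mates sought among all kept cells, the shares were 21.7% against 8.38% at 16 weeks, 13.4 points (3.95 to 24.9), and 27.7% against 25.3% at 8 weeks, 2.34 points (-7.30 to 12.7). The 8-week difference was thus not detectable between large cells, whose median depth was 15518 UMIs in dividing and 8086 UMIs in non-dividing cells.

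Clone sharing was seen in both lineages, with gates read from all UMIs and thus at unequal depth. Large cells were not compared by lineage. Among Cd4-gated cells 12 of 42 dividing (28.6%) and 48 of 545 non-dividing cells (8.81%) had a mate at 16 weeks, and 19 of 67 (28.4%) and 108 of 539 (20%) at 8 weeks. Among Cd8-gated cells the counts were 1 of 9 (0.281 to 48.2%) and 8 of 221 (3.62%, 1.58 to 7.01%) at 16 weeks. At 8 weeks they were 8 of 20 (40.0%, 19.1 to 63.9%) and 18 of 193 (9.33%, 5.62 to 14.3%).

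Seen by clone, 10 of 37 clones of 2 or more cells at 16 weeks (27.0%, 13.8 to 44.1%) and 25 of 65 at 8 weeks (38.5%, 26.7 to 51.4%) held a dividing cell, and a larger clone has more cells that could be dividing. Of cells with a receptor found once in the library 57 of 1300 (4.38%) and 82 of 1163 (7.05%) were dividing. In clones of exactly 2 cells the dividing share was 11 of 50 (22.0%) and 14 of 72 (19.4%), in clones of 3 to 4 cells 2 of 27 (7.41%, 0.910 to 24.3%) and 10 of 63 (15.9%), and in clones of 5 or more 3 of 19 (15.8%) and 10 of 64 (15.6%). The clones of 2 or more cells with a dividing cell held 16 dividing and 10 non-dividing cells at 16 weeks and 34 dividing and 60 non-dividing cells at 8 weeks. Of the dividing cells 11 had a dividing mate and 10 a non-dividing mate at 16 weeks, and 16 and 27 at 8 weeks. Of the non-dividing mates 8 of 10 and 49 of 60 had none of the 10 rule genes. In 5 clones at 16 weeks and 7 at 8 weeks at least 2 cells were dividing.

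The clones that held 3 dividing cells, and the largest clone with a dividing cell at 8 weeks, show what these receptors look like. The CDR3 is given 5′ to 3′ as assembled by the authors, with capitals for the bases between the stretches that match the germline V and J segments, which hold added bases and, in the beta chain, what is left of the D segment. Alpha segments lie on chromosome 14 and beta segments on chromosome 6, and germline segments were taken from GENCODE M21 on GRCm38, the reference strain, so bases in which NOD differs would also be in capitals. The 16-week clone had 7 cells, 3 of them dividing. Of the 7, 4 were Cd4-gated, 3 had UMIs of both lineages and 2 had a Foxp3 UMI. It used TRAV14-1 (chr14:53554022-53554558), TRAJ15, TRBV15 (chr6:41141188-41141658) and TRBJ2-7. The largest 8-week clone had 14 cells, 2 dividing, with 12 Cd4-gated, 1 Cd8-gated and 1 of neither lineage, and used TRAV21-DV12 (chr14:53875984-53876752), TRAJ57, TRBV13-2 (chr6:41121396-41121832) and TRBJ2-7. The next had 7 cells, 3 dividing, with 4 Cd4-gated and 3 of neither lineage, and used TRAV13D-1 (chr14:52851290-52851866), TRAJ32, TRBV15 and TRBJ1-4. The last had 3 cells, all 3 dividing and all Cd8-gated, with TRAV9N-3 (chr14:53231433-53232102), TRAJ12, TRBV14 (chr6:41135145-41135616) and TRBJ1-5.
16-week clone of 7 cells, alpha: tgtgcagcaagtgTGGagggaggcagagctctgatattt
16-week clone of 7 cells, beta: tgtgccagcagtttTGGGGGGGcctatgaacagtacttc
8-week clone of 14 cells, alpha: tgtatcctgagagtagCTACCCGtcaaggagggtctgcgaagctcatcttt
8-week clone of 14 cells, beta: tgtgccagcggGGGAtatgaacagtacttc
8-week clone of 7 cells, alpha: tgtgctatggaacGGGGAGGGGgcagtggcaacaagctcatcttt
8-week clone of 7 cells, beta: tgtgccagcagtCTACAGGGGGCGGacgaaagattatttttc
8-week clone of 3 cells, alpha: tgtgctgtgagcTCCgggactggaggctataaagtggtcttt
8-week clone of 3 cells, beta: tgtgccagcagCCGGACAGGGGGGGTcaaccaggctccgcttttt
The 16-week clone of 7 cells and the 8-week clone of 7 cells share the TRBV15 segment, and the junctions between V and J differ in length, with 8 capital bases in the first beta chain and 13 in the second.

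Across ages, 1 paired receptor was found in both libraries, with TRAV5-4, TRAJ56, TRBV1 and TRBJ2-7. It was carried by 2 cells at 16 weeks, 0 of them dividing, and by 2 cells at 8 weeks, 1 of them dividing, and all 4 were Cd4-gated. It was the only one of 67 and 107 clones with a dividing cell that was found at the other age. No cell barcode carried the same receptor in both libraries.

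**Figure D5:**
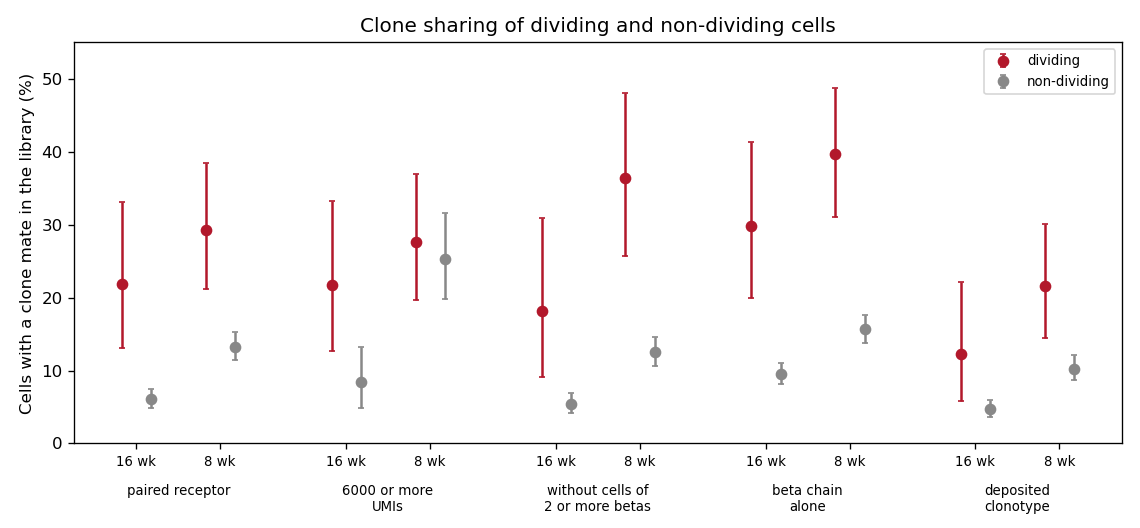
Share of cells with a clone mate in the same library (vertical axis, percent, with exact 95% intervals) for dividing (red) and non-dividing (grey) cells at 16 and 8 weeks, under 5 ways of counting (groups on the horizontal axis). Dividing cells lie higher with a paired receptor (21.9% against 6.05% at 16 weeks), while the 8-week pair is close between cells of 6000 or more UMIs (27.7% against 25.3%).

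Between ages, few genes of dividing cells were far apart. Of 1168 genes with at least 50 UMIs over the dividing cells of both libraries, 47 (4.02%) were 1.5-fold or more higher and 61 (5.22%) lower at 16 than at 8 weeks. The highest were Ccl4, a chemokine that attracts effector cells, Gzmk, a granzyme, Clec2d, a ligand of an NK receptor, Acin1, Lbh and Calr, the endoplasmic chaperone calreticulin. Ccl4 stood at 827 CPM at 16 weeks against 207 CPM at 8 weeks in dividing cells, a ratio of 1.99 (1.53 to 2.49), and a single cell held 24.8% of its UMIs at 16 weeks. In non-dividing cells it stood at 139 CPM at both ages. Gzmk stood at 199 CPM at 16 weeks against 82.0 CPM at 8 weeks in dividing cells, and at 58.9 against 70.4 CPM in non-dividing cells. The direction of Clec2d, Lbh, Snrpc and 2410015M20Rik changed at another thinning depth. The lowest were S100a4, Pfdn1, Timm10b, 2410015M20Rik, Snrpc and Fam173a. S100a4 stood at 103 CPM at 16 weeks against 254 CPM at 8 weeks in dividing cells, a ratio of -1.27 (-2.20 to -0.50), and at 50.9 against 113 CPM in non-dividing cells, lower at 16 weeks in both classes.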

How the data were processed

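Messenger RNA and T cell receptor libraries were made per age with a 10x 5′ kit, per the labels. The deposited matrices hold UMI counts as the authors left them, and the deposited contig tables hold UMI counts per receptor chain. The aligner, the caller and their settings are not given in the sources at hand; the submitters' processing notes name mm10 and Seurat without a role. Python 3.11.15, numpy 2.4.6, pandas 2.3.3, scipy 1.17.1 and matplotlib 3.10.9 were used. Cells of 500 or more genes and at most 10% mitochondrial UMIs were kept. Cells were thinned without replacement to 2000 UMIs and shallower cells left out (1 and 0 dividing, 292 and 340 non-dividing at 16 and 8 weeks). The summed UMIs of a class became CPM, and log2 ratios had 0.5 UMIs added to each sum. Shares have exact Clopper-Pearson and differences Newcombe 95% intervals, and ratios exact conditional ones. All cover counting error only. No p-value was computed, because each age has 1 library and the members were chosen on RNA of the same cells. Receptors were taken as the productive alpha and beta chain with most UMIs. Receptor constant genes were not analysed here. The counting steps were tested on simulated data. The members and gene lists were chosen with earlier results of these data known. Named genes were the 12 highest and 12 lowest past 1.5-fold in both libraries, ranked by the ratio nearer to 0 and outside cell cycle and receptor genes, the 10 highest cell cycle genes, list members, and the 6 highest and lowest between ages. Of 641 list members 621 were found by symbol. A few genes that the rule names are not reported here.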

Additional observations from a re-analysis of the deposited data

Results flagged for a closer look

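Ccl5, a chemokine of effector T cells, had opposite directions in the libraries when the UMIs of all cells were summed. It stood at 1987 CPM in dividing against 1675 CPM in non-dividing cells at 16 weeks, a log2 ratio of 0.25 (0.08 to 0.41), and at 1414 against 1812 CPM at 8 weeks, a ratio of -0.36 (-0.52 to -0.20). In single-receptor large cells Ccl5 was higher in dividing cells of both libraries. The ratios there were 0.27 (0.13 to 0.41) at 16 weeks and 0.21 (0.04 to 0.37) at 8 weeks. At equal depth Ccl5 had a UMI in 37.2% of dividing and 13.9% of non-dividing cells at 16 weeks. At 8 weeks the shares were 29.7% and 17.1%. The opposite directions were thus not seen in these comparisons. The difference between the ages was not tested, since each has 1 library.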

How the results depend on the processing

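No paired analysis was possible because each age has 1 messenger RNA library and no result comes from a test. Of 180 values of the main results under other settings, 135 moved by less than counting error or, for counts, less than 1.5-fold. A further 42 moved more and 3 changed direction. A change of direction was counted only for values whose main interval excluded 0. The Foxp3 differences, whose main intervals held 0, are thus not among the 3. In cells of 6000 or more UMIs they were -7.48 points at 16 weeks and -1.95 points at 8 weeks. The causes were not tested. Of 20 lists, 2 were 1.5-fold or more higher and 3 lower in both libraries. Calling members with 5 rule genes gave equal-depth shares of 1.89% at 16 weeks and 3.91% at 8 weeks, and calling them after thinning gave 2.93% and 5.34%. At 1000 UMIs the equal-depth shares were 1.25% and 2.15% (-0.896 points) with 4 lists higher, and the log2 ratio was 0.069 for Lag3 at 8 weeks and, between dividing cells of 16 and 8 weeks, 0.63 for Snrpc, -0.39 for Clec2d and -0.12 for Lbh. At 3000 UMIs the shares were 6.27% and 10.6% (-4.36 points), the Cd4-gated difference at 16 weeks was 1.18 points, 1 list was higher, and the ratio between ages was 0.051 for 2410015M20Rik and -0.061 for Clec2d. Without thinning the Cd4-gated differences were 11.6 and 5.84 points, the Foxp3 difference at 8 weeks 22.8 points, 864 genes were lower and 4 lists higher. With 1000 or more genes and at most 5% mitochondrial UMIs the shares of dividing cells were 5.90% and 10.1%, 1 list was higher and the clone sharing difference at 8 weeks was 8.27 points. Without cells of 2 or more beta chains the 8-week share was 5.26%. Leaving out cells with RNA of other types, or cell cycle, ribosomal, mitochondrial and receptor genes from the CPM total, left 1 list higher. In Cd4-gated cells alone 310 genes were higher and 235 lower, 0 lists were higher, and Ccl3 at 8 weeks had a ratio of -2.47 with no UMI in dividing cells. In Cd8-gated cells alone 229 were higher and 130 lower, 7 lists were higher, and ratios were 0.13 for Als2cl at 16 weeks and 0.74 and 0.74 for Pdlim4. A minimum of 20 UMIs gave 883 higher and 656 lower genes, and one of 200 UMIs gave 214 and 130. The deposited clonotype gave a clone sharing difference of 7.64 points at 16 weeks. Comparisons of large cells were chosen after seeing the data. At 6000 or more UMIs the Foxp3 difference at 16 weeks was -7.48 points, 232 genes were higher and 171 lower, 0 lists were higher, and the clone sharing difference at 8 weeks was 2.34 points. There the ratios at 16 weeks were -0.26 for the regulatory T median, -0.30 for Ctla4, -0.23 for Tnfrsf4, -0.21 for Ikzf2 and -0.30 for S100a4, and those at 8 weeks 0.12 for Frat2, -0.28 for Tnfrsf4 and -0.23 for S100a6. With fewer than 2 beta chains as well, 143 genes were higher and 83 lower, 0 lists were higher and the clone sharing difference at 8 weeks was 3.71 points. Ratios at 16 weeks were then -0.0046 for the regulatory T median, 0.30 for St8sia1, -0.86 for Gzmb and -0.21 for S100a4, and at 8 weeks 0.12 for Frat2, 0.067 for Klf2, -0.33 for Tnfrsf4, -0.082 for S100a4 and -0.22 for S100a6. Depth limits the lineage and Foxp3 shares. At 2000 UMIs the lineage shares rest on 28 and 50 gated dividing cells at 16 and 8 weeks, and the Foxp3 shares on 12 and 23 Cd4-gated ones.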

Other observations

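Among clones with a dividing cell, counted once each, the most used beta segment of the non-dividing clones of both libraries, TRBV13-2, was carried by 7 of 67 dividing clones (10.4%, 4.30 to 20.3%) and by 196 of 1277 non-dividing clones (15.3%, 13.4 to 17.4%) at 16 weeks. At 8 weeks it was carried by 15 of 107 (14%, 8.06 to 22.1%) and 154 of 1143 (13.5%, 11.5 to 15.6%). Other segments stood further apart in 1 library. TRBV13-3 was carried by 13.4% of dividing clones (6.33 to 24.0%) and 5.01% of non-dividing clones (3.88 to 6.36%) at 16 weeks, and by 7.48% and 5.42% at 8 weeks. TRBV31 was carried by 0.935% (0.0237 to 5.10%) and 5.69% (4.42 to 7.19%) at 8 weeks, and by 5.97% and 4.86% at 16 weeks. These segments were picked after their values were seen, and no difference was tested.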
